A study of Mus musculus with 6 samples.

Results

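The genes of 9 leukocyte integrin chains were examined among the 47729 genes of a count table from mouse spleen. They were taken by name as the alpha chains Itgal, Itgam, Itgax, Itgad, Itgae and Itga4 and the beta chains Itgb2, Itgb7 and Itgb1, and all 9 were found and passed the filter on low counts. Whole spleens of 3 female NOD.B10 mice (NOD.B10Sn-H2b/J), a strain that develops a disease like primary Sjögren's syndrome, and of 3 female BL/10 mice (C57BL10/SnJ), the healthy control strain, had been sequenced. The labels name no engineered allele and no treatment for either strain. NOD.B10 mice carry the H2b haplotype on a NOD background, so the strains differ at many loci. The NOD.B10 libraries and BL/10 replicate 1 carried an age of 26 weeks, and BL/10 replicates 2 and 3 an age of 36 weeks, which departs from the age matching described for the study.

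Strains were assigned by the names of the count columns and the sample descriptions. The titles and strain fields give the opposite strain for all 6 libraries, and under them each direction below would be reversed, and the ages of 36 weeks would belong to NOD.B10. Total counts lay between 15662712 and 18298451. All libraries held B cell, T cell and red pulp macrophage markers, as spleen does. BL/10 replicate 1 stood apart, since 11 pancreas acinar genes summed to 13236 CPM there (counts per 1e6, scaled for library size and composition), to 1981 and 111 CPM in BL/10 replicates 2 and 3, and to at most 31.5 CPM in NOD.B10.

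Integrins are paired surface receptors made of 1 alpha and 1 beta chain, through which leukocytes bind other cells and the extracellular matrix. The beta chain CD18 (Itgb2) pairs with the CD11 alpha chains, namely CD11a (Itgal) in LFA-1, CD11b (Itgam) in Mac-1, CD11c (Itgax) and CD11d (Itgad). The alpha chain CD49d (Itga4) pairs with the chain of Itgb1 to form VLA-4, a receptor for VCAM-1, or with that of Itgb7 to form a receptor for MAdCAM-1, and CD103 (Itgae) pairs only with the latter and binds E-cadherin.

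Transcripts of 3 chains were higher in NOD.B10 than in BL/10 spleens and those of 1 chain were lower. Itgad, Itgae and Itgb7 were 1.65-fold, 1.55-fold and 1.55-fold higher, and Itgam was 1.93-fold lower. The shared beta chain Itgb2 and the alpha chains Itgal, Itgax and Itga4 did not pass the threshold, and Itgb1 lay just short of it. BL/10 was the reference in edgeR's quasi-likelihood test, and the threshold was a Benjamini-Hochberg adjusted p under 0.05 over 15330 tested genes. Of all tested genes, 17.3% passed it, 9.16% as higher and 8.17% as lower in NOD.B10. The median log2 fold change was 0.21 over the 9 chains and 0.00060 over all tested genes.

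**Figure D1:**
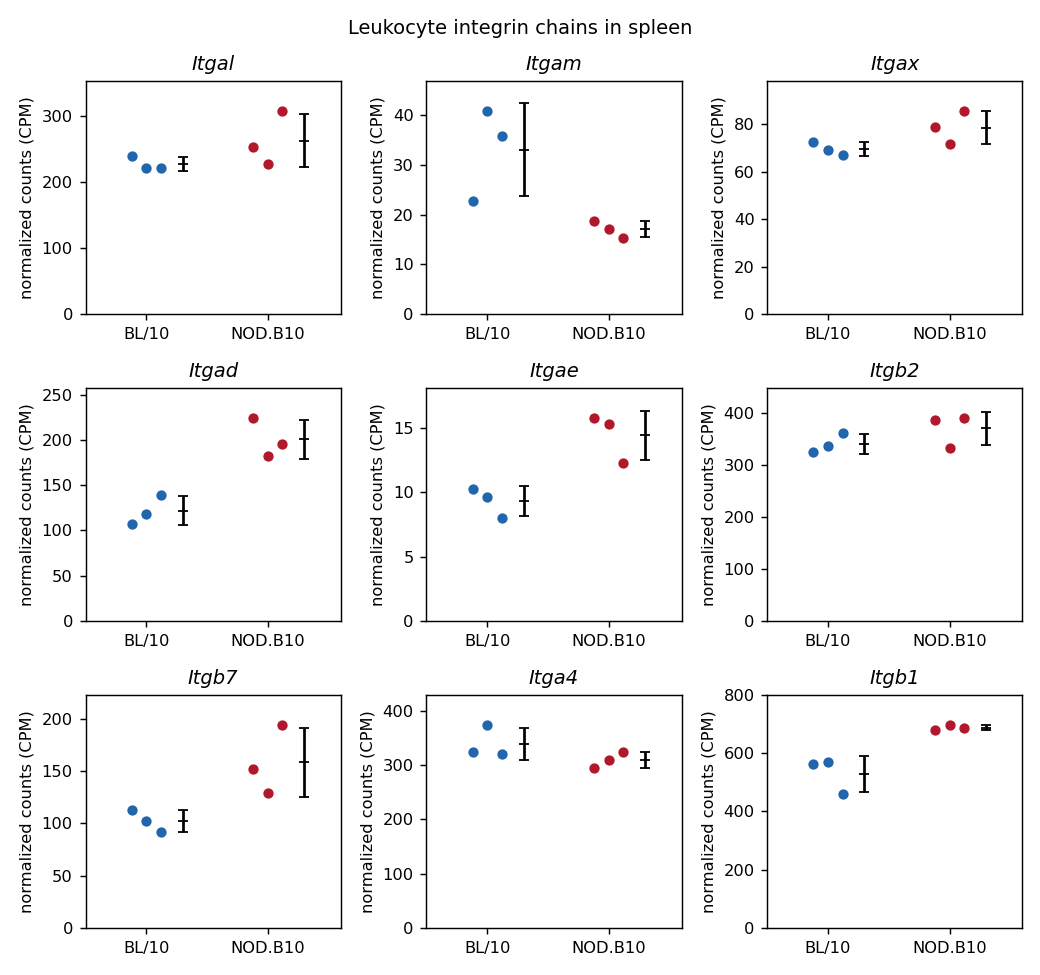
Normalized counts (CPM, y axis from 0) of each of the 9 chains in 3 BL/10 (blue) and 3 NOD.B10 (red) libraries, with replicates 1, 2 and 3 from left to right and the mean ± SD of each strain as a black bar. All NOD.B10 points lie above all BL/10 points for Itgad, Itgae, Itgb7 and Itgb1 and below them for Itgam, and the points of the strains overlap for the other chains.

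Among the chains that pair with Itgb2, Itgad had the steadiest difference. CD11d is known from macrophages of the splenic red pulp. Itgad (ENSMUSG00000070369), on chromosome 7 from 128154376 to 128223816 of GRCm38 on the plus strand, had 224, 182 and 196 CPM in NOD.B10 replicates 1, 2 and 3 and 107, 119 and 139 CPM in BL/10 replicates 1, 2 and 3. The lowest NOD.B10 library therefore lay above the highest BL/10 library. The means were 200.5 ± 21.3 CPM (SD, n = 3) and 122 ± 16.2 CPM (SD, n = 3), which gave a log2 fold change of 0.72 ± 0.13 (SE, edgeR adjusted p = 0.00834). Itgad stayed past the threshold in all 6 fits that left out 1 replicate, with adjusted p between 0.00935 and 0.0404 from edgeR, and in a fit of the libraries labelled 26 weeks alone (log2 fold change 0.90, adjusted p = 0.0146 from edgeR). That last fit holds BL/10 replicate 1 as its only BL/10 library, which is assumed to vary like the NOD.B10 libraries.

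The summed level of 10 red pulp macrophage markers overlapped between the strains, from 3081 to 4161 CPM in NOD.B10 and from 3520 to 4238 CPM in BL/10. Of these markers 1 was higher and 1 was lower in NOD.B10, the median log2 fold change was -0.02, and DESeq2 called 5. None of the 10 was at 0. Their part in the difference in Itgad was not tested, and in whole spleen a larger number of cells of a type and more RNA per cell cannot be told apart.

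Itgam moved the other way. CD11b marks neutrophils, monocytes and many macrophages. Itgam (ENSMUSG00000030786), on chromosome 7 from 128062640 to 128118491 on the plus strand, had 18.7, 17.1 and 15.4 CPM in the NOD.B10 libraries and 22.8, 40.7 and 35.7 CPM in the BL/10 libraries (replicates 1, 2 and 3). The groups did not overlap, but BL/10 replicate 1 lay closer to the NOD.B10 libraries than to the other BL/10 libraries. The mean of BL/10 was 33.1 ± 9.27 CPM (SD, n = 3) and that of NOD.B10 17.1 ± 1.66 CPM (SD, n = 3), a log2 fold change of -0.95 ± 0.21 (SE, edgeR adjusted p = 0.0202).

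The call on Itgam depended on the libraries. Without BL/10 replicate 1 the adjusted p from edgeR was 0.000877, and in each of the other 5 fits without a replicate it was over 0.05, up to 0.0775. With only the libraries labelled 26 weeks the log2 fold change was -0.41 (adjusted p = 0.195 from edgeR). Most neutrophil markers moved with Itgam. Of 13 neutrophil genes, 12 were lower in NOD.B10 and the list had a median of -2.03 (log2 fold change). The remaining gene, Cxcr2, had a positive log2 fold change and did not pass the threshold (0.58, adjusted p = 0.105 from edgeR). The summed level of the 13 ran from 2275 to 2616 CPM in NOD.B10 and from 6381 to 13323 CPM in BL/10. Within BL/10 that sum was 6381, 13323 and 11736 CPM in replicates 1, 2 and 3, so replicate 1 was the lowest for both Itgam and these genes. Of 8 monocyte markers 1 was lower and none higher (median log2 fold change -0.19). Their summed level was 759 to 874 CPM in NOD.B10 and 901 to 1124 CPM in BL/10. The lower one was Ly6c2, with a mean of 9.95 CPM in NOD.B10 and 157 CPM in BL/10. This 1 gene makes up much of the difference between the sums. The other 7 did not pass the threshold, and 2 of the 8 had positive values. All 4 mast cell and basophil markers were lower (median -2.17). No marker of these 3 lists was at 0, and their part in the difference in Itgam was not tested.

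**Figure D2:**
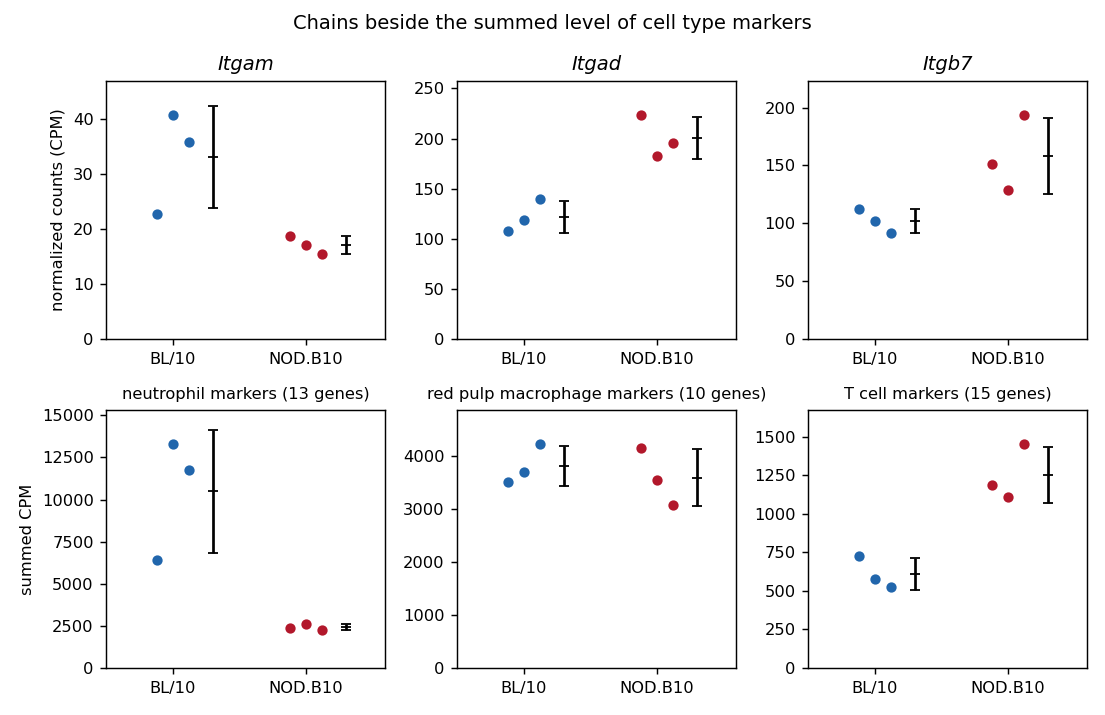
Normalized counts (CPM) of Itgam, Itgad and Itgb7 in the top row and, below each, the summed CPM of neutrophil, red pulp macrophage and T cell markers in the same libraries, with BL/10 in blue, NOD.B10 in red, replicates 1, 2 and 3 from left to right and mean ± SD as a black bar. The sums of the strains are apart for neutrophil markers (2275 to 2616 against 6381 to 13323 CPM) and T cell markers (1111 to 1456 against 524 to 724 CPM) and overlap for red pulp macrophage markers.

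The position of the chains matters for how Itgam was counted. Itgam, Itgax and Itgad lie next to each other on chromosome 7, with 11.1 kb between Itgam and Itgax and 3.72 kb between Itgax and Itgad, and Itgal lies 728 kb before Itgam. The annotation used for counting also holds Gm49368 (ENSMUSG00000108596), a gene on the same strand from 128062683 to 128128160. Its exons share 3450 of the 5024 exon bases of Itgam. Reads that overlap more than 1 gene were left out, so Itgam was counted on 1574 bases of its own, and Gm49368 had between 0 and 2 counts in each library. Itgad shares 890 of its 4510 exon bases with other genes and Itga4 shares 1124 of 13978 with Cerkl on the opposite strand, and the other 6 chains share none. Of 49 tested genes within 250 kb of the 4 CD11 alpha genes, 3 were higher and 1 was lower in NOD.B10. Of all tested genes, 17.3% were called in either direction.

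Itgal and Itgax did not pass the threshold. Itgal (ENSMUSG00000030830), on chromosome 7 from 127296260 to 127335138 on the plus strand, encodes the alpha chain of LFA-1, the ICAM receptor of T cells and most other leukocytes. It had 254, 228 and 307 CPM in NOD.B10 and 239, 221 and 222 CPM in BL/10, and NOD.B10 replicate 2 lay within the BL/10 range. The log2 fold change was 0.21 ± 0.13 (SE, edgeR adjusted p = 0.278). Itgax (ENSMUSG00000030789), on chromosome 7 from 128129547 to 128150657 on the plus strand, encodes CD11c, which is high on dendritic cells. It had 78.8, 71.5 and 85.4 CPM in NOD.B10 and 72.7, 69.2 and 66.8 CPM in BL/10, again with NOD.B10 replicate 2 inside the BL/10 range. Its log2 fold change was 0.18 ± 0.09 (SE, edgeR adjusted p = 0.214). Of 8 markers of conventional dendritic cells type 1 none was called by edgeR or DESeq2 and 3 had an unadjusted p under 0.05 in edgeR, and of 6 markers of type 2, 1 was higher.

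The common beta chain Itgb2 (ENSMUSG00000000290), on chromosome 10 from 77530252 to 77565708 on the plus strand, had 388, 334 and 391 CPM in NOD.B10 and 325, 338 and 361 CPM in BL/10. The libraries overlapped, and the log2 fold change was 0.12 ± 0.11 (SE, edgeR adjusted p = 0.465). Over all settings tried, the adjusted p of Itgb2 was between 0.319 and 0.733.

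Because chain genes differ in length, levels of different chains were compared as CPM per kilobase of exon (RPKM). In BL/10 the order was Itgb1 (130 RPKM), Itgb2 (112), Itgb7 (37.2), Itgal (34.6), Itgad (27.0), Itga4 (24.2), Itgax (14.5), Itgam (6.58) and Itgae (2.03). In NOD.B10 it was Itgb1 (169), Itgb2 (121), Itgb7 (57.7), Itgad (44.5), Itgal (40.0), Itga4 (22.1), Itgax (16.4), Itgam (3.40) and Itgae (3.15), so that Itgad stood above Itgal there. The libraries overlapped between Itgb1 and Itgb2, Itgb7 and Itgal, and Itgad and Itga4 in BL/10, and between Itgb7 and Itgad, Itgad and Itgal, and Itgam and Itgae in NOD.B10. On its own exon bases, Itgam reached 21.0 ± 5.89 RPKM (SD, n = 3) in BL/10 and 10.9 ± 1.06 RPKM (SD, n = 3) in NOD.B10, and stood above Itgax in the former strain by these means.

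The makeup of the CD11 chains differed with this measure. Itgad made up 29.8%, 31.9% and 36.1% of the summed RPKM of Itgal, Itgam, Itgax and Itgad in BL/10 replicates 1, 2 and 3, and 45.8%, 43.3% and 39.1% in the NOD.B10 replicates. Itgam made up 5.67%, 9.83% and 8.30% in BL/10 and 3.44%, 3.65% and 2.76% in NOD.B10. The groups did not overlap for either chain. The difference was 10.1 percentage points for Itgad, while it was -4.65 for Itgam, -1.85 for Itgax and -3.63 for Itgal, whose libraries overlapped. The 4 shares add up to the whole in each library, so they are not independent. A larger share of Itgad lowers the others, and the level of Itgax itself had a positive log2 fold change (0.18). In the two-sided exact permutation test, Itgad, Itgam and Itgax had p = 0.1, the smallest that 3 libraries against 3 can give, and Itgal had p = 0.3 (adjusted over the 4 chains, 0.133 and 0.3).

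On exon bases that no other gene shares, a measure added after the overlap of Itgam was seen, the share of Itgam was 20.1% ± 4.62 (SD, n = 3) in BL/10 and 8.89% ± 1.14 (SD, n = 3) in NOD.B10. The share of Itgad was 32.4% ± 2.59 (SD, n = 3) and 45.2% ± 2.98 (SD, n = 3). Both kept groups that did not overlap, while the shares of Itgax then overlapped.

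**Figure D3:**
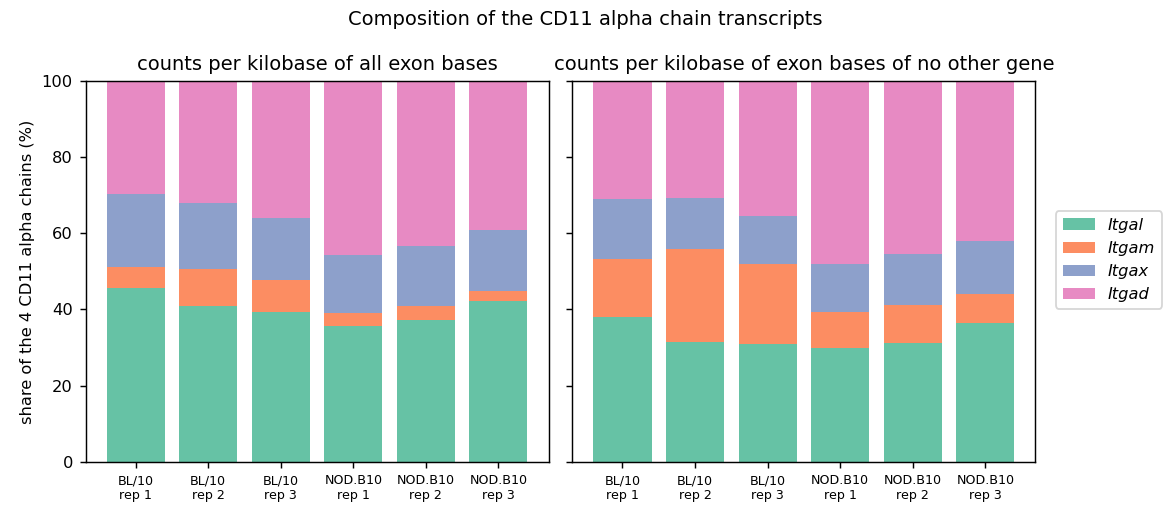
Share of Itgal, Itgam, Itgax and Itgad in their summed level per kilobase (y axis, percent) in each library, 3 BL/10 and 3 NOD.B10, with counts divided by all exon bases (left) or by the exon bases that no other gene shares (right). The segment of Itgad is larger in each NOD.B10 library than in any BL/10 library, and that of Itgam is smaller, in both panels.

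The ratio of each alpha chain to its beta chain within a library does not depend on the scaling of libraries. For Itgad to Itgb2 the mean log2 ratio of RPKM was -1.45 ± 0.10 (SD, n = 3) in NOD.B10 and -2.06 ± 0.11 (SD, n = 3) in BL/10. For Itgam to Itgb2 it was -5.16 ± 0.20 (SD, n = 3) and -4.13 ± 0.40 (SD, n = 3). Counted per exon base that no other gene shares, these means were -1.13 and -1.74 for Itgad and -3.49 and -2.45 for Itgam. The levels of the ratios were then higher, and the differences between the strains were the same. For Itga4, the ratio to Itgb7 was lower in NOD.B10 by 0.75 and that to Itgb1 by 0.51, since the beta chains had higher and Itga4 had slightly lower values there. The difference was within the spread for Itgal to Itgb2 (0.08), Itgax to Itgb2 (0.05) and Itgae to Itgb7 (0.02). Of these 7 ratios, 4 had groups that did not overlap, each with p = 0.1 in the two-sided exact permutation test, the smallest possible, and 0.175 when adjusted over the 7. The summed RPKM of the CD11 chains per RPKM of Itgb2 was 0.858 ± 0.00809 (SD, n = 3) in NOD.B10 and 0.740 ± 0.0141 (SD, n = 3) in BL/10, also without overlap (exact permutation p = 0.1). On exon bases that no other gene shares, the groups lay closer. The ratio was then 1.01 ± 0.00571 (SD, n = 3) in NOD.B10 and 0.928 ± 0.0332 (SD, n = 3) in BL/10, again without overlap (exact permutation p = 0.1).

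Itgb7 (ENSMUSG00000001281), the beta chain of gut-homing and intraepithelial lymphocytes, lies on chromosome 15 from 102215995 to 102231935 on the minus strand. It had 151, 129 and 194 CPM in NOD.B10 replicates 1, 2 and 3 and 112, 102 and 91.9 CPM in the BL/10 replicates. The groups did not overlap, and NOD.B10 replicate 3 was the highest library. The means were 158 ± 32.9 CPM (SD, n = 3) and 102 ± 10.2 CPM (SD, n = 3), with a log2 fold change of 0.63 ± 0.16 (SE, edgeR adjusted p = 0.0293). Its alpha partner Itgae (ENSMUSG00000005947), on chromosome 11 from 73090583 to 73147446 on the plus strand, marks intraepithelial lymphocytes, a share of regulatory T cells and dendritic cells of type 1. It had few counts (263, 249 and 218 in NOD.B10 and 189, 143 and 141 in BL/10), or 15.7, 15.3 and 12.2 CPM against 10.3, 9.59 and 8.01 CPM, without overlap. Its log2 fold change was 0.63 ± 0.15 (SE, edgeR adjusted p = 0.0253). Each of these genes was past the threshold in 2 of the 6 fits without a replicate, Itgb7 without NOD.B10 replicate 2 or BL/10 replicate 1 and Itgae without NOD.B10 replicate 3 or BL/10 replicate 1. With only the libraries labelled 26 weeks, neither was past it (adjusted p = 0.315 for Itgb7 and 0.224 for Itgae from edgeR).

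T cell markers moved the same way as Itgb7 and Itgae. Of 15 T cell genes 12 were higher in NOD.B10 and the list had a median of 1.32 (log2 fold change), and their summed level was 1111 to 1456 CPM in NOD.B10 and 524 to 724 CPM in BL/10, with the highest value of each strain in the library that was also highest for Itgb7. Of 4 regulatory T cell genes 2 were higher (median 0.79, summed level 49.3 to 61.6 CPM in NOD.B10 and 24.5 to 40.7 CPM in BL/10). For Itgae the highest NOD.B10 library was replicate 1, and NOD.B10 replicate 3, the highest for T cell markers, was the lowest. No T cell or regulatory T cell marker was at 0. The part of these lists in the differences was not tested.

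Itga4 (ENSMUSG00000027009), on chromosome 2 from 79255426 to 79333123 on the plus strand, was the only chain other than Itgam with a negative log2 fold change. It had 293, 309 and 324 CPM in NOD.B10 and 323, 373 and 319.7 CPM in BL/10, with overlap, and a log2 fold change of -0.13 ± 0.11 (SE, edgeR adjusted p = 0.411). Itgb1 (ENSMUSG00000025809), on chromosome 8 from 128685654 to 128733200 on the plus strand, encodes the most widely shared beta chain. It had 679, 697 and 687 CPM in NOD.B10 and 561, 569.6 and 459 CPM in BL/10, and the groups did not overlap. Its log2 fold change of 0.38 (standard error 0.12) had an adjusted p of 0.0628 from edgeR and of 0.0174 from DESeq2. In all, the libraries of the strains did not overlap for 5 of the 9 chains, against 38.0% of all tested genes.

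**Figure D4:**
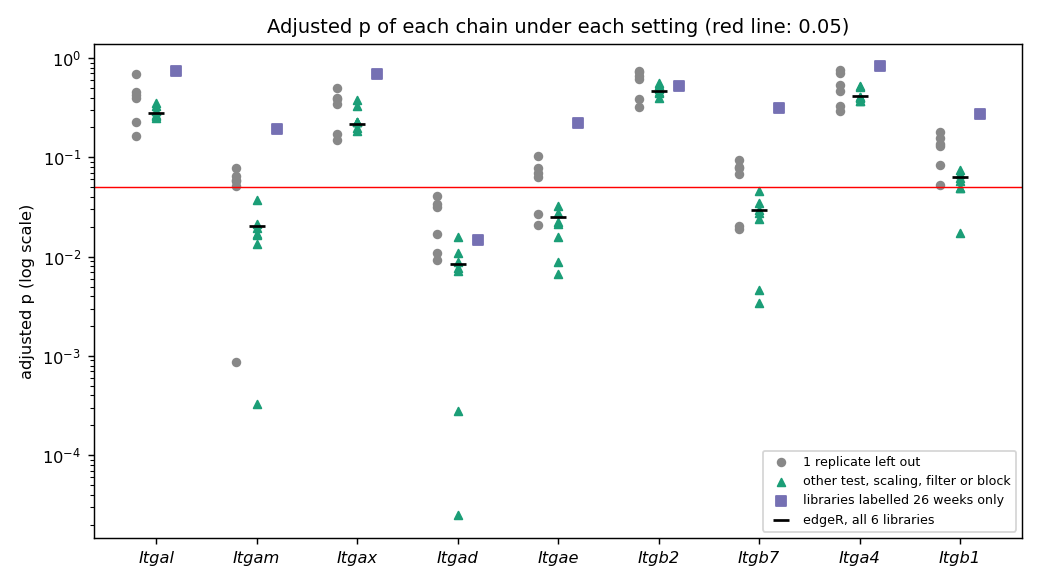
Adjusted p (y axis, log scale) of each chain with all 6 libraries in edgeR (black bar), with 1 replicate left out (grey points), with another test, scaling, filter or a replicate block (green triangles) and with only the libraries labelled 26 weeks (purple squares). All points of Itgad lie under the red line at 0.05, those of Itgam, Itgae and Itgb7 lie on both sides of it, and those of Itgal, Itgax, Itgb2 and Itga4 lie above it.

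The genes closest to the called chains over the 6 libraries were found by the root mean square difference of mean-centred log2 CPM. For this, 0.5 was added to each CPM value. For Itgam they were Pygl (0.0587) and Galnt10 (0.0625), for Itgad Ggt5 (0.0400) and Ephb6 (0.0491), for Itgae Npl (0.0468) and Cspg5 (0.0549), and for Itgb7 Zfp457 (0.0497) and Fam189b (0.0517). The median over all tested genes was between 0.378 and 0.550 for these chains. Cspg5 (0.227 to 0.837 CPM) and Zfp457 (0.341 to 1.46 CPM) were low, so the added 0.5 shrank their log2 differences. Their log2 fold changes in edgeR were 1.11 and 1.18, and neither passed the threshold. The list of closest genes comes from only 6 libraries and 15330 genes and is a description.

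The sequence before the annotated start was available in the RefSeq table used (GRCm38.p6) for 5 of the 9 chains. The 250 bases before the start are shown for Itgam and Itgb7, which moved in opposite directions, and for Itgax, the neighbor of Itgam that did not pass the threshold. They are chr7:128062390-128062639 on the plus strand for Itgam, chr15:102231936-102232185 on the minus strand for Itgb7 and chr7:128129300-128129549 on the plus strand for Itgax. Capitals mark GAGGAA, letters common to sites of the myeloid factor PU.1, and GGGCGG, those of Sp1 sites, on either strand.
Itgam: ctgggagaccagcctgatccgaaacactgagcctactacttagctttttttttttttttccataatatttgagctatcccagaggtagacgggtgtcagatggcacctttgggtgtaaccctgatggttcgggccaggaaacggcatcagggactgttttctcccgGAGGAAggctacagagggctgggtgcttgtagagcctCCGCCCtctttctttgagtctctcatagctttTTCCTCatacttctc
Itgb7: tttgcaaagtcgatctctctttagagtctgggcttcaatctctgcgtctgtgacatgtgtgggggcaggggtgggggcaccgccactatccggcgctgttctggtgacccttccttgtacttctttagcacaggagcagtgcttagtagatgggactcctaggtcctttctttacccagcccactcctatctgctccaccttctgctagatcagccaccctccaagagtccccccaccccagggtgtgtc
Itgax: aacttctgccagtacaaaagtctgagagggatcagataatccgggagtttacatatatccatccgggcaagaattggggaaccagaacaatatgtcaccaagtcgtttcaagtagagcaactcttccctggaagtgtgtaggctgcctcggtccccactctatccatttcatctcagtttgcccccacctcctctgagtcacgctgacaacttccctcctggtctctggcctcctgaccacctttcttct
GAGGAA began 84 and 15 bases before the start of Itgam and GGGCGG began 47 bases before it, each without overlap with another, while the windows of Itgb7 and Itgax held neither. TGTGGT, the letters of RUNX sites, was in none of the 3 windows. The letters were not particular to Itgam among the available windows. The window of Itgb1, not shown, held GAGGAA 9 and GGGCGG 151 bases before the start. That of Itga4, also not shown, held TGTGGT 60 and GGGCGG 114 bases before it. Of 32536 distinct windows of this length, 23.4% held GAGGAA, 33.0% GGGCGG and 14.0% TGTGGT. These matches describe the letters in the reference strain and say nothing about binding.

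The other integrin chains were compared in the same fit. Of 12 other alpha chains 5 were higher and 1 was lower in NOD.B10, and the median log2 fold change was 0.40. The alpha chains that rose all pair with Itgb1 or, for Itgav, with several beta chains, and bind extracellular matrix. They were Itga11, a fibrillar collagen receptor chain (log2 fold change 1.05, adjusted p = 0.0124 from edgeR), Itga8 (0.63), Itgav (0.54), Itga1 (0.51) and Itga3 (0.50). Itga5, the alpha chain of the fibronectin receptor, was lower, with 15.5, 15.8 and 10.8 CPM in NOD.B10 and 20.3, 25.1 and 28.1 CPM in BL/10 (log2 fold change -0.80, adjusted p = 0.0210 from edgeR). Of 5 other beta chains, Itgb6 had no counts, and none of the 4 tested was called by edgeR or DESeq2, although all had negative values (median -0.38) and 2 had an unadjusted p under 0.05 in edgeR. The platelet pair Itga2b and Itgb3 had log2 fold changes of -0.58 and -0.50. Without NOD.B10 replicate 1, none of the 16 tested chains was past the threshold of edgeR, and 6 had an unadjusted p under 0.05. Without NOD.B10 replicate 3 the count was 1 (Itga11), and without BL/10 replicate 2 it was 3 (Itga11, Itga2b and Itgb3).

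**Figure D5:**
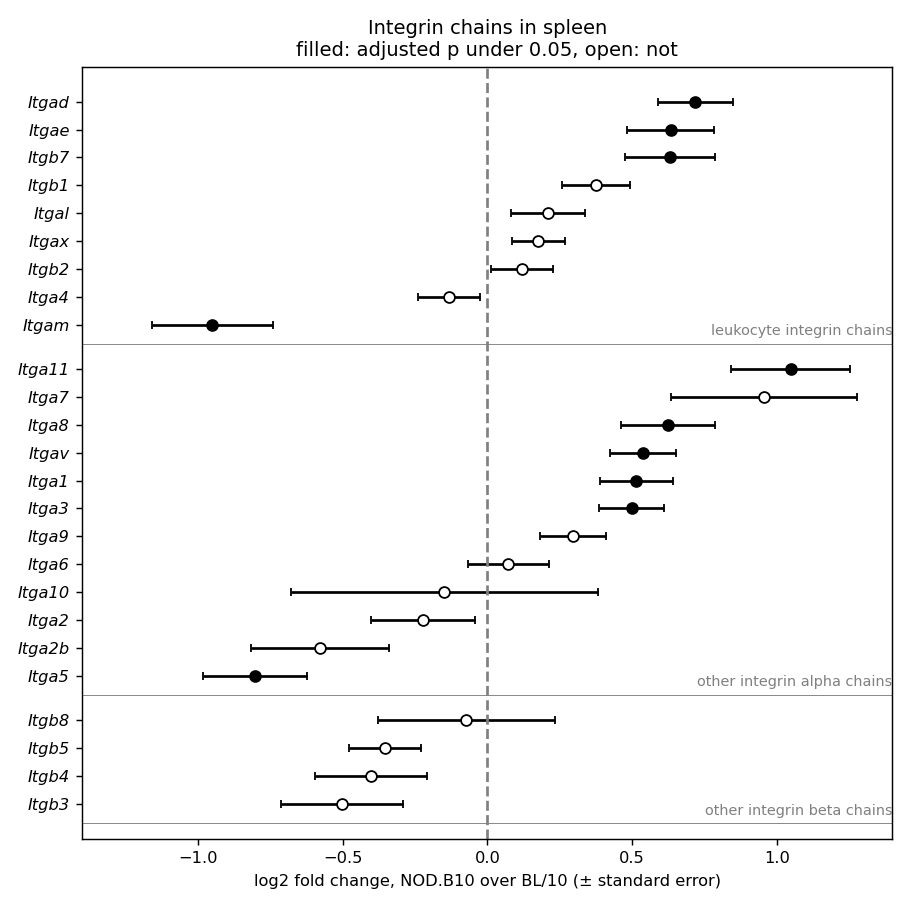
Log2 fold change of NOD.B10 over BL/10 (x axis, ± standard error from edgeR with all 6 libraries) of the 9 leukocyte integrin chains, 12 other alpha chains and 4 other beta chains, with filled points for adjusted p under 0.05. Itgad, Itgae and Itgb7 stand to the right of 0 and Itgam to the left (-0.95), and among the other chains Itga11 has the highest value (1.05) and Itga5 the lowest (-0.80).

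Ligands of the integrins were next examined. Of 15 tested ligand genes 2 were higher and 1 was lower, with a median log2 fold change of -0.16. Madcam1, the ligand of the pair of Itga4 and Itgb7, had 25.2, 25.8 and 24.2 CPM in NOD.B10 and 16.8, 14.0 and 12.4 CPM in BL/10 (log2 fold change 0.80, adjusted p = 0.00535 from edgeR). The groups did not overlap, and Madcam1 stayed past the threshold in all 6 fits without a replicate, but not with only the libraries labelled 26 weeks (adjusted p = 0.0568 from edgeR). Vcam1, the ligand of the pair of Itga4 and Itgb1, was at 852 ± 58.0 CPM (SD, n = 3) in BL/10 and at 1112 ± 53.0 CPM (SD, n = 3) in NOD.B10 (log2 fold change 0.39, adjusted p = 0.0466 from edgeR), and was past the threshold in none of these 6 fits. Spp1, which encodes the secreted ligand osteopontin, was lower, with 2.15, 2.83 and 1.74 CPM in NOD.B10 and 12.2, 9.25 and 7.05 CPM in BL/10 (log2 fold change -2.08, adjusted p = 0.00181 from edgeR), and passed in all 6.

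Of 34 tested genes that activate integrins from inside the cell or link them to actin, 2 were higher and 1 was lower, a smaller share than the 17.3% of all tested genes (median log2 fold change 0.10). Skap1, an adaptor of LFA-1 activation in T cells, had 34.2, 32.1 and 39.6 CPM in NOD.B10 and 19.6, 18.4 and 15.7 CPM in BL/10 (log2 fold change 0.98, adjusted p = 0.00190 from edgeR), and was past the threshold in all 6 fits without a replicate. Rassf5, a Rap1 effector that binds LFA-1, had a log2 fold change of 0.42, and Parvb, a partner of integrin-linked kinase, one of -0.61. Talin (Tln1), Rap1 (Rap1a, Rap1b) and the rest of the 31 other genes did not pass the threshold, although kindlin-3 (Fermt3, log2 fold change -0.26) had an adjusted p of 0.107 from edgeR and of 0.0489 from DESeq2.

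The other marker lists are given as counts for comparison with the chains. Of 7 NK cell genes 1 was higher and 1 lower (median log2 fold change 0.22), and of 7 plasma cell genes 6 were higher (median 0.63). Of 9 B cell genes none was called by edgeR with all libraries and 1 by DESeq2, 1 had an unadjusted p under 0.05 in edgeR, and 7 were called without BL/10 replicate 1. Of 7 megakaryocyte and platelet genes 2 were lower (median -0.52, none without BL/10 replicate 1 in edgeR), of 10 erythroid genes 1 was lower (median -0.49, 4 called without BL/10 replicate 1) and of 6 stromal genes 1 was higher (median 0.06). None of the 11 pancreas acinar genes was called by edgeR, all 11 had an unadjusted p under 0.05, and DESeq2 called 11.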

How the data were processed

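Single-end reads came from spleen RNA of 3 biological replicates of each strain. The authors deposited raw read counts per gene, without normalization. Per the file headers, exons were counted by gene with featureCounts version 1.5.1 and Ensembl annotation 84 (GRCm38). The aligner is Tophat2 in the paper and HISAT2 version 2.0.5 in the submitters' processing notes. With these counting settings, strand was not used and reads that overlap several genes were left out. Gene lengths, deposited beside the counts, are another value of that table.

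Symbols came from GENCODE M21 (47224 of 47729 identifiers matched). The software was edgeR 4.0.16 and DESeq2 1.42.0, run under R 4.3.3 with limma 3.58.1. Genes kept by filterByExpr (15330) were normalized by TMM and compared by the robust quasi-likelihood test, without covariates. The procedure was tested on simulated counts. Ratios and shares were compared by two-sided exact permutation tests. Replicates of a strain differed by at least 13.5 times the counting noise (chi-square per degree of freedom). The detection floor of 3 counts equals 0.163 to 0.201 CPM, and covers counting error only.

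The 9 chains, the pathway lists (other integrin chains, ligands, activation genes) and the marker lists came from general knowledge and were chosen with earlier results of these data known. All 9 chains are named, with the called genes of the pathway lists, counts of the marker lists and the 2 closest genes of each called chain. The Myd88-deficient mice of the paper were studied by flow cytometry and cytokine arrays, and are not among the 6 libraries. Alternatives were DESeq2, other normalizations and filters, a replicate block, each replicate left out, and the libraries labelled 26 weeks alone.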

Additional observations from a re-analysis of the deposited data

How the results depend on the processing

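Of the 9 chains, 4 were past the threshold, and the count was 4 or 5 under DESeq2, RLE or upper-quartile scaling, other filters, without immunoglobulin, hemoglobin and pancreas genes, and with a replicate block. It was 1 to 4 in the fits without a replicate, and 1 (Itgad) without NOD.B10 replicate 1, BL/10 replicate 2 or BL/10 replicate 3. With only the libraries labelled 26 weeks, the log2 fold change of Itgad was 0.90. The age label is the same throughout that fit, but 1 BL/10 library is left, so strain and that library cannot be told apart. With all libraries, the older age label occurs only in BL/10, so strain and age are not fully separated there. Without a replicate, the counts were 0 to 5 for the other integrin chains (6 with all libraries), 2 to 5 for the ligands (3 with all) and 1 to 7 for the activation genes (3 with all). Leaving out NOD.B10 replicate 1 gave the lowest count of each list, alone or with other libraries, and leaving out BL/10 replicate 1 the highest for ligands and activation genes. With DESeq2 they were 7, 5 and 5, and with the libraries labelled 26 weeks 2, 2 and 1. The number of calls over all tested genes moved likewise. It was 1305 without NOD.B10 replicate 1 and 4099 without BL/10 replicate 1, the lowest and highest of the fits without a replicate. It was 2656 with all libraries and 3319 with DESeq2. The cause was not tested. The log2 ratio of Itgax to Itgb2 differed by -0.016 to 0.12 and that of Itgae to Itgb7 by -0.17 to 0.29 without a replicate, changing sign.

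The labels do not say that replicate numbers pair the mice. Deviations of libraries with the same number had correlations of 0.0542, 0.251 and -0.0762, and NOD.B10 replicate 3 did not correlate best with its own number. A replicate block gave 2978 called genes in place of 2656, and 4 chains, 8 other chains, 4 ligands and 4 activation genes.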

Other observations

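Itgb2l, a gene related to Itgb2 in sequence, was on none of the lists and was chosen after its values were seen. It lies on chromosome 16 from 96422288 to 96443619 of GRCm38 on the minus strand. It had 20, 24 and 26 counts in the NOD.B10 libraries and 445, 700 and 820 counts in BL/10 replicates 1, 2 and 3. The groups were far apart, and BL/10 replicate 1 had the lowest BL/10 value, as it did for Itgam. It stood at 24.2, 46.9 and 46.6 CPM in the BL/10 libraries and at 1.38 ± 0.157 CPM (SD, n = 3) in NOD.B10, a log2 fold change of -4.82 ± 0.32 (SE, edgeR adjusted p = 9.74e-05). It passed the threshold in all 6 fits without a replicate, with adjusted p up to 0.0013 from edgeR, and with only the libraries labelled 26 weeks (log2 fold change -4.13, adjusted p = 2.42e-05 from edgeR). Neutrophil markers, 12 of 13 of which were lower in NOD.B10, moved in the same direction but by less (median log2 fold change -2.03). Their part was not tested.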
